A study of Mus musculus with 14 samples.

Results

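The apolipoprotein genes of mouse chromosomes 1, 7 and 9 were described from their RNA 3′ ends. Their sites were all poly(A) sites inside 3 windows of genome build mm9, namely chr1:173155000-173157000 on the + strand (Apoa2), chr9:46034000-46082000 on both strands (Apoa1, Apoc3, Apoa4 and Apoa5) and chr7:20250000-20290000 on the - strand (Apoc2, Apoc1 and Apoe). After sites of the 14 libraries were merged, 65 of 159969 sites lay in these windows, with 512361.5 of 51014728 tags. By strand and gene order, 54 of the 65 sites were put to the 8 genes, 5 to Apoc4, a neighbour between Apoc2 and Apoc1, and 6 to no gene.

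The tags came from 3P-seq, a method that sequences the junction of an RNA with its poly(A) tail, so that each tag marks the 3′ end of 1 RNA and its number does not grow with transcript length. Libraries were made from total RNA of liver, kidney, heart, lung, muscle and white adipose tissue of wild-type mice and of mice with a deletion of the microRNA miR-22 (labelled miR-22D), and from mouse embryonic stem cells (mESC) and the fibroblast line 3T3. All 14 carry the label 129S5/SvEvBrd, and neither the age and sex of the mice nor the number of mice per library is given in the labels. There was 1 library per tissue and genotype, so the wild-type and knockout library of a tissue stood in as replicates of that tissue, and every p-value below rests on the spread between libraries of different genotype, not between animals. The tests also draw the spread of each site towards that of all tested sites, so no p-value rests on the libraries of its own site alone. The libraries held 2036838 to 6010465 tags. The floor of 3 tags corresponded to 0.311 to 1.96 CPM (tags per 1000000, scaled by the trimmed mean of M values, TMM). Neither the deletion nor the tissue labels were checked against marker genes, because the files name no genes and no mm9 annotation was used.

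Apolipoproteins are the protein components of the particles that carry cholesterol and triglyceride in plasma. They give the particles their structure, bind to lipoprotein receptors, and switch the lipases and transferases that work on the particles on or off. Hepatocytes make most of them, enterocytes of the intestine make several, and Apoe is in addition made by macrophages, astrocytes and other cells. The genes lie close together in groups that arose by duplication.

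The microRNA that the knockout mice lack and the promoters of 5 of the genes are shown first, because genotype and the shared liver pattern are what the values below compare. The sequences are from RefSeq (GRCm38.p6). The seed of miR-22-3p (bases 2 to 8) is in capitals.
mmu-miR-22-3p: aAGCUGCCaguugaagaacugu
RefSeq promoter windows of 250 bases before to 50 bases after an annotated start matched 6 of the 8 genes, with 10 windows in all. In them 3 short motifs were searched on both strands, and capitals mark each match. The motif TATAAA is the core of the box bound by the general transcription machinery, AGGTCA the half-site of nuclear receptors, and CAAAGT a part of the element bound by the liver factor HNF4A.
Apoa2 promoter, chr1:171224804-171225103 (+): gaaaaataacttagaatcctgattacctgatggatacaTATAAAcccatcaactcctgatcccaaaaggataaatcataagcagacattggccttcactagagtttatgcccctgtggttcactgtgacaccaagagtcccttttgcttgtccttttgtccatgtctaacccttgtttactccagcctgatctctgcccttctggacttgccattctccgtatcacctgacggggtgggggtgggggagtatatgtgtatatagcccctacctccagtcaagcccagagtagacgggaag
Apoc2 promoter, chr7:19677892-19678191 (-): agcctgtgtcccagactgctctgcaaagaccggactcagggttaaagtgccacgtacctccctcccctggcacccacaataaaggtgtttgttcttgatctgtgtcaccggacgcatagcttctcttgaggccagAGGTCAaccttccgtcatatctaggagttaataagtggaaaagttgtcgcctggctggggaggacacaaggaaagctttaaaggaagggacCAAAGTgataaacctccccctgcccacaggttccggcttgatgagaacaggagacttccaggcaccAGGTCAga
Apoa4 promoter, chr9:46240594-46240893 (+): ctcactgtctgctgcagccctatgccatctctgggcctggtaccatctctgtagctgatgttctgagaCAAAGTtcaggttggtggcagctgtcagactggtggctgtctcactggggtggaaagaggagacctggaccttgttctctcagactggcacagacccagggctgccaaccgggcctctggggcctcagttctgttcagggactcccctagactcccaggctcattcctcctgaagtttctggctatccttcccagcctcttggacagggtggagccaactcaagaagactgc
Apoa5 promoter, chr9:46268358-46268657 (+): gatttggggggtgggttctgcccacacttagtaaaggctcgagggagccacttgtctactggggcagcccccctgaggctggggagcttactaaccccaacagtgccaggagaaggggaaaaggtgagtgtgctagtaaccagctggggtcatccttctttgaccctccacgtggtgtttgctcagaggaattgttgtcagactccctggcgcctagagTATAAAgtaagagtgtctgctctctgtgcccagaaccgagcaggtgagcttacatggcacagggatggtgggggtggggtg
Apoe promoter, chr7:19699139-19699438 (-): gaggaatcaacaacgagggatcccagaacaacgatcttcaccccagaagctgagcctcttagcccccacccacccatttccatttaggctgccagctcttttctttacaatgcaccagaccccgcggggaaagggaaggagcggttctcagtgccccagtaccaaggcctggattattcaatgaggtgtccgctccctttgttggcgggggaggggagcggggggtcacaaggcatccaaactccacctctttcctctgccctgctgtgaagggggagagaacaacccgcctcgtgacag
The Apoc2 window held AGGTCA 115 bases before and 42 bases after the start, and CAAAGT 24 bases before it. Apoa4 held CAAAGT 182 bases before its start, Apoa5 held TATAAA 31 bases before it, and the printed Apoa2 window held TATAAA 212 bases before it. Another Apoa2 window held AGGTCA 238 bases before its start, on the opposite strand. Another Apoe window held TATAAA 100 bases before its start on the opposite strand and 96 bases before it on the gene strand, the matches overlapping. The printed Apoe window and the Apoa1 window held none of the 3 motifs. Among all 32851 promoter windows, TATAAA occurred in 13.6%, AGGTCA in 16.3% and CAAAGT in 14.4%. A match describes the letters of the window and is no measured binding site.

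In 7 of the 8 genes 1 site held nearly all tags, and in Apoa5 the main site held 82.8%. The main sites lay at chromosome 9, 46038546 (+) for Apoa1, 46041144 (-) for Apoc3, 46051534 (+) for Apoa4 and 46079491 (+) for Apoa5. On chromosome 7 they lay at 20256933 for Apoc2, 20274832 for Apoc1 and 20281619 for Apoe, all on the - strand, and on chromosome 1 at 173156500 (+) for Apoa2. Apoa1 and Apoc3 point at each other, with main 3′ ends 2598 nt apart. Those of Apoc3 and Apoa4 were 10390 nt apart, those of Apoa4 and Apoa5 27957 nt and those of Apoc1 and Apoe 6787 nt. Whether a site falls in a 3′ untranslated exon was not determined without an mm9 annotation.

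All 8 genes were highest in liver, and 7 of them had a mean of under 1% of their liver level in each of the other 5 tissues. Summed over the 8 genes, apolipoprotein tags were 6.40% of all tags of wild-type liver and 5.29% of knockout liver. They were 0.636% and 1.23% in white adipose tissue and between 0.0135% and 0.0948% in the libraries of the other 4 tissues. In liver the main sites ranked 3rd (Apoe), 5th (Apoa2), 16th (Apoc3), 27th (Apoa1), 34th (Apoa4), 37th (Apoc1), 59th (Apoa5) and 216th (Apoc2) among 23856 tested sites. Of the 54 sites of the 8 genes, 18 passed the filter on low tag numbers, and the filter keeps a site that is high in liver alone. All 18 were called higher in liver than in the mean of the other 5 tissues (edgeR quasi-likelihood test with Benjamini-Hochberg adjustment, adjusted p under 0.05 and at least 4-fold), against 13.8% of all tested sites. Less RNA per cell and fewer cells of a type cannot be told apart in such bulk libraries.

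**Figure D1:**
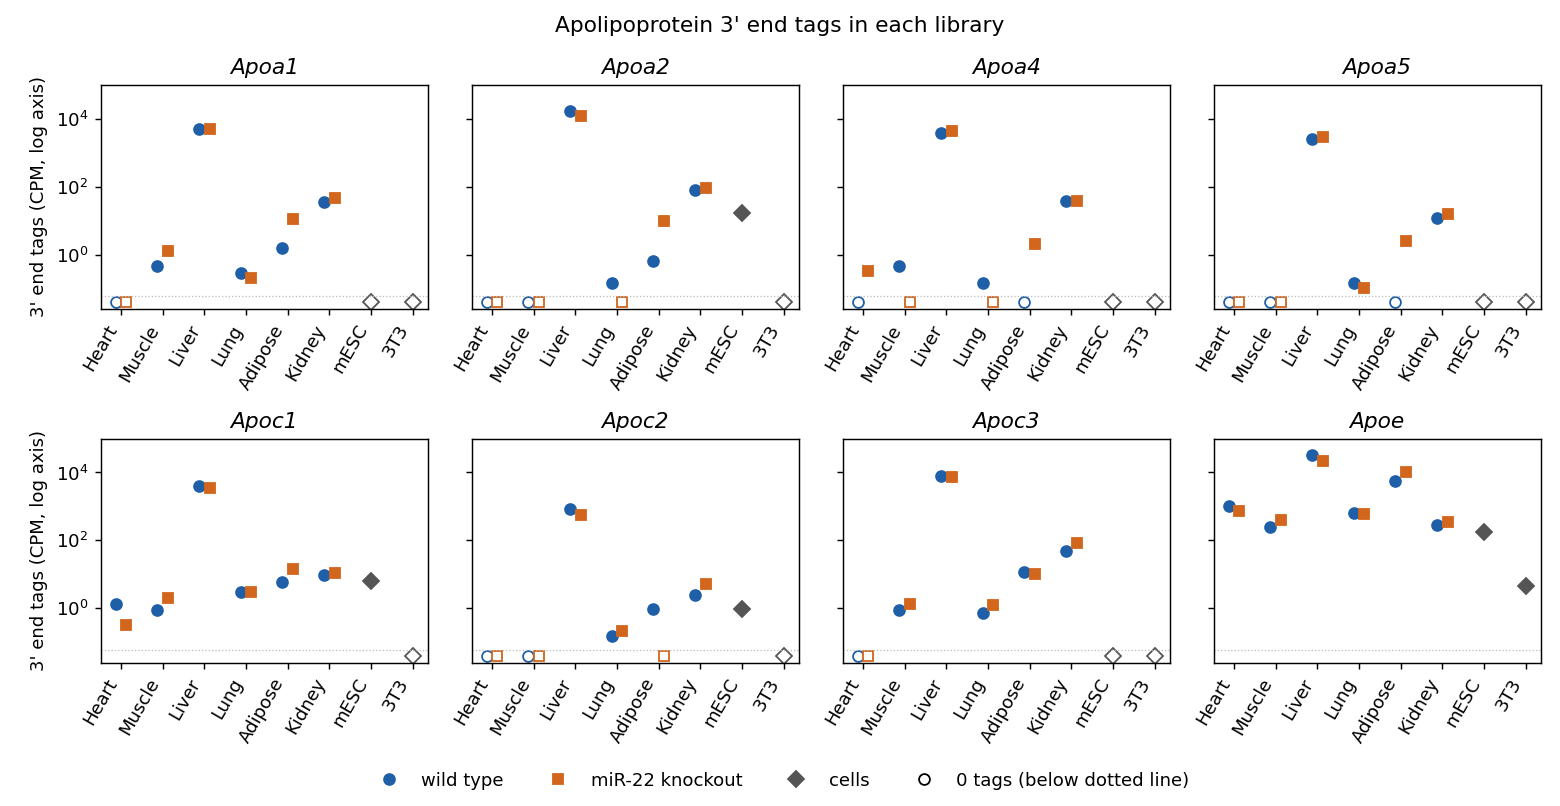
Tags of each gene in each library, in TMM-scaled CPM on a log axis. Circles are wild type, squares miR-22 knockout, diamonds the 2 cell cultures, and open symbols below the dotted line mark libraries with 0 tags. Liver stands above every other tissue for all 8 genes, and Apoe alone has tags in all 14 libraries.

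Apoa1 is the main protein of high-density lipoprotein (HDL) and activates the enzyme that esterifies its cholesterol. It stood at 5146 CPM in wild-type and 5094 CPM in knockout liver, 35.0 and 46.4 CPM in kidney, 1.57 and 11.1 CPM in adipose tissue, 0.452 and 1.31 CPM in muscle and 0.295 and 0.207 CPM in lung, in that order of genotype. The adipose values came from 5 and 27 tags and the muscle values from 1 and 2. Both heart libraries, mESC and 3T3 had 0 tags. The 2 liver libraries were close to each other and the lower one was 110-fold above the highest library of any other tissue, that of knockout kidney. Liver exceeded kidney by 7.03 ± 0.60 (SE) on the log2 scale (edgeR, adjusted p = 2.05e-14), and against the floor of 3 tags over both heart libraries it was at least 8942-fold higher. Kidney, adipose tissue and muscle, the next in order, each differed from their neighbour (edgeR, adjusted p = 2.56e-05 for kidney against adipose and 0.0118 for adipose against muscle), whereas muscle and lung did not differ beyond the spread (edgeR, adjusted p = 0.256).

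Apoa2, the second protein of HDL, was the strongest of the 7 genes. It reached 17287 CPM in wild-type and 11944 CPM in knockout liver, 82.2 and 91.5 CPM in kidney, and 0.627 and 9.47 CPM in adipose tissue. Wild-type lung had 1 tag, and knockout lung, heart and muscle had 0. Liver exceeded kidney by 7.44 ± 0.64 (SE) on the log2 scale (edgeR, adjusted p = 2.64e-14), and the lower liver library was 131-fold above the highest other one. Its order was liver, kidney, adipose tissue and lung, with each of these neighbours different (edgeR, adjusted p = 5.2e-08 for kidney against adipose and 3.95e-06 for adipose against lung).

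Apoc2 is the cofactor that lipoprotein lipase needs to hydrolyse triglyceride, and Apoa5 raises the action of that lipase. Apoc2 was the lowest of the 8 genes in liver, with 820 CPM in wild type and 564 CPM in knockout, and it had 2.37 and 5.13 CPM in kidney. It had 3 tags in wild-type adipose tissue, 0 in the knockout, 1 and 2 in lung, and 0 in heart and muscle. Apoa5 stood at 2505 and 2842 CPM in liver and at 11.8 and 16.2 CPM in kidney, with 0 and 6 tags in adipose tissue, 1 and 1 in lung and 0 in heart and muscle. Both genes were clear of every other tissue in liver, by 110-fold for Apoc2 and 155-fold for Apoa5 between the lower liver and the highest other library. Liver exceeded kidney by 7.51 ± 0.66 (SE) for Apoc2 and by 7.53 ± 0.63 for the main site of Apoa5 on the log2 scale (edgeR, adjusted p = 4.43e-14 and 1.51e-14). Kidney in turn exceeded adipose tissue for Apoc2 (edgeR, adjusted p = 0.0087) and for Apoa5 (edgeR, adjusted p = 1.41e-05).

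Apoc3 is known as an inhibitor of lipoprotein lipase and of the hepatic uptake of remnant particles. It had 7856 and 7243 CPM in liver, 48.4 and 83.5 CPM in kidney, 11.9 and 9.88 CPM in adipose tissue, 0.905 and 1.31 CPM in muscle, 0.736 and 1.24 CPM in lung, and 0 tags in heart. The lower liver library was 86.7-fold above the higher kidney library. On the log2 scale liver exceeded kidney by 6.88 ± 0.56 (SE) (edgeR, adjusted p = 8.42e-15), kidney exceeded adipose tissue (edgeR, adjusted p = 2.25e-05) and adipose tissue exceeded muscle (edgeR, adjusted p = 0.000229). Muscle and lung did not differ beyond the spread (edgeR, adjusted p = 1).

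Apoa4 is carried on chylomicrons and HDL and in rodents is made by liver as well as intestine. Liver had 3814 and 4256 CPM and kidney 37.6 and 39.1 CPM, and the remaining tissue libraries held 0 to 5 tags each. Liver exceeded kidney by 6.72 ± 0.61 (SE) on the log2 scale (edgeR, adjusted p = 7.84e-14), and kidney exceeded adipose tissue (edgeR, adjusted p = 6.56e-09). Adipose tissue, muscle, heart and lung did not differ from their neighbours in the order beyond the spread (edgeR, adjusted p = 0.444 to 0.975).

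Apoc1, a small exchangeable protein of HDL and triglyceride-rich particles, was the widest spread of the 7 genes. It had 4005 and 3384 CPM in liver, 5.95 and 13.998 CPM in adipose tissue, 9.23 and 10.8 CPM in kidney, 3.09 and 2.90 CPM in lung, 0.905 and 1.96 CPM in muscle and 1.36 and 0.330 CPM in heart. Every tissue library held at least 1 tag of its main site. Liver exceeded adipose tissue by 8.57 ± 0.64 (SE) on the log2 scale (edgeR, adjusted p = 2.82e-17). Adipose tissue and kidney did not differ beyond the spread (edgeR, adjusted p = 1), and kidney exceeded lung (edgeR, adjusted p = 0.00524).

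Apoe, the ligand through which remnant particles bind receptors of the low-density lipoprotein receptor family, was the exception. It stood at 32333 and 21214 CPM in liver, 5662 and 10294 CPM in white adipose tissue, 1044 and 717 CPM in heart, 631 and 585 CPM in lung, 246 and 408 CPM in muscle and 282 and 359 CPM in kidney. No library lacked it, and the lower liver library was only 2.06-fold above the higher adipose library. Liver exceeded adipose tissue by 1.77 ± 0.44 (SE) on the log2 scale (edgeR, adjusted p = 0.000852), and adipose tissue exceeded heart by 3.15 ± 0.47 (edgeR, adjusted p = 1.69e-07). Heart and lung, lung and muscle, and muscle and kidney did not differ beyond the spread (edgeR, adjusted p = 0.346, 0.0855 and 1). Apoe was the 1 apolipoprotein site called higher in white adipose tissue than in the mean of the other 5 tissues, where 8.65% of all tested sites were called (log2 difference 2.86 ± 0.28 SE, edgeR, adjusted p = 7.04e-13), and no site was called lower there, against 3.39%. By edgeR 2 of the 18 sites had an unadjusted p under 0.05 in that contrast, and DESeq2 called none lower.

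Over the 8 genes, 20 of the 40 pairs of neighbouring tissues in the order of level differed (edgeR, adjusted p under 0.05). The order came from the same values as the test. Heart and muscle both had 0 tags of Apoa2, Apoa5 and Apoc2, so these pairs could not differ. Of all tested sites, 29.6% differed between liver and kidney, 38.7% between liver and adipose tissue, 46.4% between liver and lung, 36.3% between adipose tissue and kidney, 33.4% between adipose tissue and lung, 26.4% between adipose tissue and heart, and 26.6% between adipose tissue and muscle. The share was 43% for lung against kidney, 41.1% for lung against muscle, 36.6% for lung against heart, 39.2% for muscle against kidney and 15.5% for heart against muscle. All 18 tested apolipoprotein sites were higher in liver than in kidney, where 29.6% of all sites differed in either direction. The filter favours this count, since it keeps sites that are high in liver alone. An Apoa5 site at 46080128, for example, had 12 and 10 tags in liver and 0 in kidney. Sites of 1 gene are also not independent of each other. The 8 main sites had a median liver-minus-kidney log2 difference of 7.24, against -0.04 over all tested sites.

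By the mean CPM of the main site, kidney was the second tissue for 6 of the 8 genes, all but Apoc1 and Apoe. Summed over all Apoc1 sites, kidney (10.01 CPM) stood just above adipose tissue (9.98 CPM), so the place of Apoc1 depends on the measure. Against the mean of the other 5 tissues, 7 apolipoprotein sites were called higher in kidney, where 13.8% of all tested sites were called. They were the main sites of Apoa1, Apoa2, Apoa4, Apoa5, Apoc2 and Apoc3 and an upstream Apoa5 site. The main Apoe site was called lower in kidney, with a log2 difference of -2.69 ± 0.41 SE (edgeR, adjusted p = 1.35e-07), against 4.07% of all sites called lower. The fitted sizes for the 6 genes are not given, because they are averaged against tissues with 0 or 1 tags of the gene. The Apoc2 call was lost without the knockout kidney library (edgeR, adjusted p = 0.198), and DESeq2 did not call the main Apoa5 site (adjusted p = 0.169).

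Among heart, muscle and lung, 4 sites were called lower in heart, 3 in muscle and 2 in lung, against 2.98%, 6.86% and 4.71% of all tested sites. The 4 sites lower in heart were the main sites of Apoa1, Apoa4, Apoc1 and Apoc3. Those lower in muscle were Apoa4, Apoc1 and Apoe, and those lower in lung were Apoa4 and Apoc1. Apoa2, Apoa5 and Apoc2 had 0 tags in both heart and muscle and were called lower in neither. Their fitted errors were too large for a call (Apoa2 in heart, log2 difference -7.81, SE 7807000). A missing call therefore does not show a higher level, and these counts do not rank the tissues. None was called higher in these 3 tissues by edgeR or DESeq2, against 9.15% (heart), 8.61% (muscle) and 12.5% (lung). In these contrasts 5, 3 and 3 of the 18 sites had an unadjusted p under 0.05. DESeq2 called 7 sites lower in muscle and 6 in lung, and the edgeR count for lung was 1 without either heart library, wild-type muscle, knockout lung or knockout adipose tissue. The Apoa4 call was lost in heart without wild-type muscle, wild-type lung or knockout adipose tissue, in muscle without wild-type lung or knockout heart, muscle or adipose tissue, and in lung without wild-type muscle or knockout heart or adipose tissue. Heart, muscle and lung each held 1 Apoa4 tag in all, in knockout heart, wild-type muscle and wild-type lung. Adipose tissue held 5, all in the knockout library. Apart from knockout muscle, each library left out there held all Apoa4 tags of its tissue. The Apoc1 difference in lung fell under 4-fold with no filter, with total-tag scaling and without wild-type heart or knockout lung.

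The low levels outside liver were set beside other liver-rich sites. A set of 73 sites outside the windows had a liver mean of at least 500 CPM and both liver libraries at least 50-fold above every other tissue library, a choice that by itself caps their level elsewhere at 2% of liver. Summed over the 7 genes other than Apoe, kidney had 0.590% of the liver level in wild type and 0.762% in knockout. The 73 sites had 0.578% and 0.702%, so that their kidney share was close to that of the 7 genes. In adipose tissue the 7 genes had 0.0547% in wild type and 0.128% in knockout, and the 73 sites 0.0231% and 0.115%. Both of these sets stood higher in the knockout than in the wild-type adipose library. In lung the 7 genes had 0.0123% and 0.0121% of the liver level, below the 0.0537% and 0.0535% of the 73 sites, and heart showed the same order, with 0.00354% and 0.00172% against 0.0394% and 0.0338%. Over a wider set of 731 liver-rich sites, with a mean of at least 50 CPM and both liver libraries above all others, the median kidney level was 6.97% of liver, with quartiles of 1.01% and 28.4%. The part of liver RNA in these values was not tested.

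**Figure D2:**
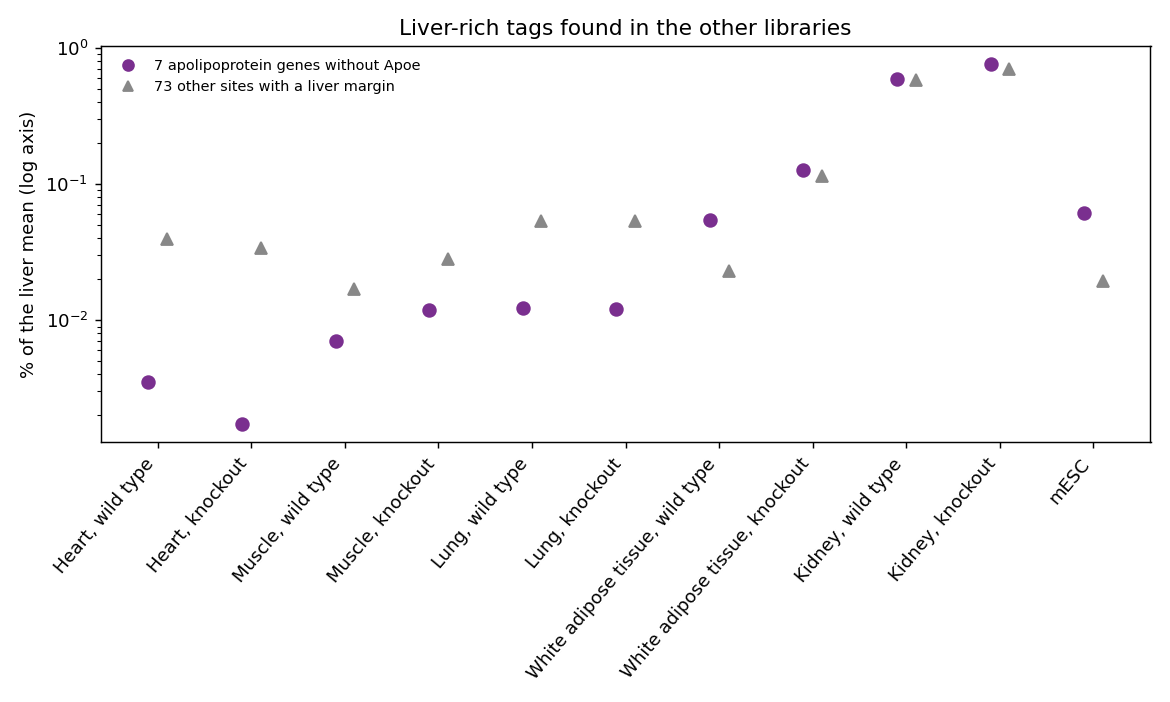
Summed CPM of the 7 apolipoprotein genes other than Apoe (circles) and of 73 other liver-rich sites (triangles) in each tissue library outside liver and in mESC, as % of their liver mean on a log axis. Kidney has the highest shares for both sets, from 0.578% to 0.762%, and heart the lowest for the 7 genes. The 3T3 library is not drawn because the 7 genes had 0 tags there.

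Apoe made up nearly all apolipoprotein tags in heart, muscle, lung and adipose tissue. Its share of the tags of the 8 genes was 99.9% in both heart libraries, 98.9% in both muscle libraries, 99.3% and 99.2% in lung and 99.6% and 99.5% in adipose tissue. The share was 55.4% in wild-type kidney (exact 95% interval 53.3% to 57.6%) and 55.1% in knockout kidney (53.0% to 57.1%), where Apoa2, Apoc3, Apoa1 and Apoa4 gave most of the rest. These intervals, like the floors, cover counting error only, since the tags carry no molecular identifiers.

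The shares of the 8 genes were not the same in the 2 liver libraries. Apoe held 43.8% of the tags of the 8 genes in wild type (exact 95% interval 43.6% to 44.0%) and 37.5% in knockout (37.3% to 37.7%), and Apoa2 held 23.4% and 21.1%. Apoc3 held 10.6% and 12.8%, Apoa1 6.98% and 9.01%, Apoa4 5.17% and 7.53%, and Apoa5 3.40% and 5.03%. The 4 genes of the chromosome 9 cluster thus had the larger share in the knockout library, as had Apoc1 on chromosome 7 with 5.43% and 5.99%, while Apoc2 held 1.11% and 0.997%. Shares of 1 library are tied together, so the lower Apoe and Apoa2 shares raise the others. In TMM-scaled CPM, Apoc3, Apoa1 and Apoc1 were lower in the knockout library (7243, 5094 and 3384 against 7856, 5146 and 4005). Apoa4 and Apoa5 were higher there (4256 and 2842 against 3814 and 2505). With 1 library per genotype this compares those libraries, not the genotypes, and carries no test.

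**Figure D3:**
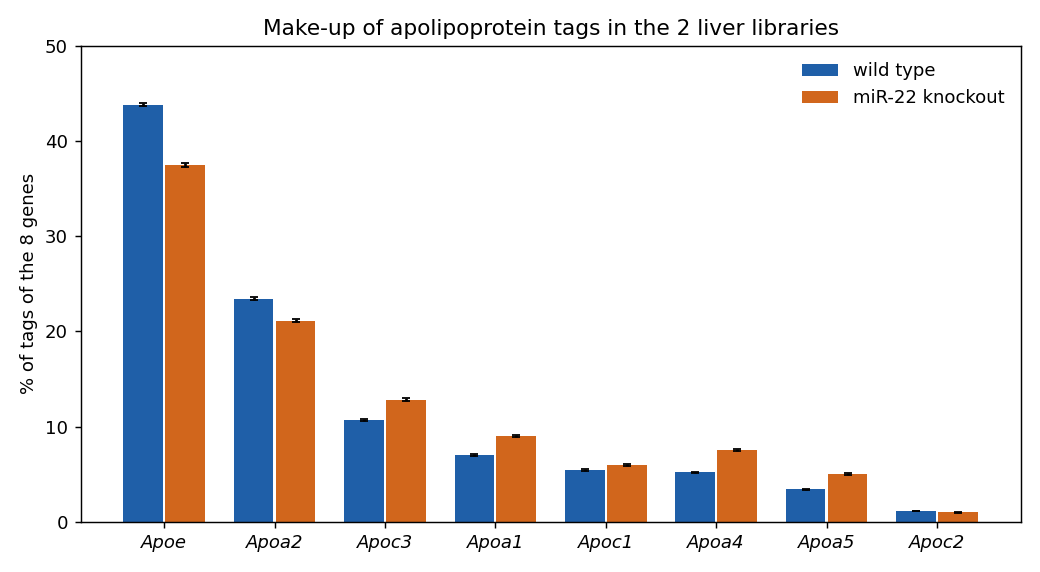
Share of each gene in the tags of the 8 apolipoprotein genes in liver of each genotype, in %, with exact 95% counting intervals. Apoe has 43.8% and 37.5%, and the 4 chromosome 9 genes and Apoc1 have larger shares in the knockout library.

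Across the 6 tissues, none of the 18 tested apolipoprotein sites was called between knockout and wild type, where 0.277% of all tested sites were called higher and 0.0671% lower (edgeR, adjusted p under 0.05). None of the 18 had an unadjusted p under 0.05, against 1663 of 23856 sites, and DESeq2 called none. The log2 differences of the 8 main sites ran from -0.09 (Apoc2) to 0.69 (Apoa1), with a median of 0.28, against -0.02 over all tested sites. For Apoe the difference was 0.11 (edgeR, adjusted p = 0.987), for Apoa2 0.41 (adjusted p = 0.949) and for Apoa5 0.52 (adjusted p = 0.921). A p that misses the threshold does not show equal levels, and each gene had 1 pair of libraries per tissue.

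In liver the knockout-to-wild-type ratio was 0.656 for Apoe (exact 95% counting interval 0.650 to 0.662), 0.691 for Apoa2 (0.682 to 0.700) and 0.687 for Apoc2 (0.648 to 0.729). It was 0.845 for Apoc1 (0.824 to 0.866) and 0.922 for Apoc3 (0.906 to 0.938). For Apoa4 it was 1.12, for Apoa5 1.13 and for Apoa1 0.9899. The counting interval lay below 1 for 5 genes and above 1 for 2, or 4 and 3 with total-tag scaling. Over the 731 liver-rich sites outside the windows, the median log2 ratio between the same 2 libraries was -0.08, with quartiles of -0.40 and 0.25. Of these sites, 321 were higher in the knockout library. How many of them have a counting interval off 1 was not computed. Such intervals are narrow at high tag numbers, so the count of genes is no result about the apolipoproteins.

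In white adipose tissue the knockout-to-wild-type ratio of Apoe was 1.82 (exact 95% counting interval 1.78 to 1.85), on the other side of 1 from liver. The other genes had few tags there, 5 and 27 for Apoa1 (ratio 7.10, interval 2.69 to 23.6) and 2 and 23 for Apoa2 (ratio 15.1, interval 3.73 to 132). Apoc1 had 19 and 34 tags and Apoc3 had 38 and 24. Beside this stand the 73 liver-rich sites, which had 50.1 and 251 CPM in sum in the same libraries. In the wider set of 731 liver-rich sites, 182 of the 412 sites with at least 10 tags there were higher in the knockout library, with a median log2 ratio of -0.16. The part of these sites in the apolipoprotein ratios was not tested.

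**Figure D4:**
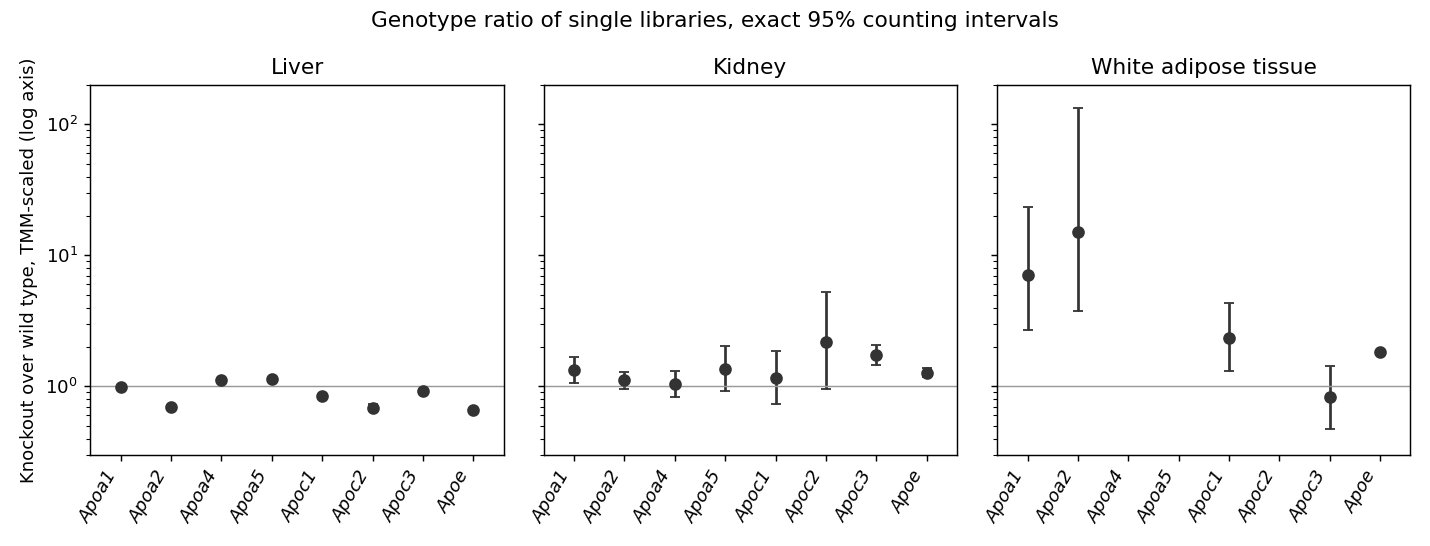
Knockout-to-wild-type ratio of TMM-scaled tags in liver, kidney and white adipose tissue on a log axis, with exact 95% counting intervals from 1 library per genotype. Apoe lies at 0.656 in liver and 1.82 in adipose tissue. Apoa4, Apoa5 and Apoc2 are not drawn in adipose tissue because 1 of the 2 libraries had 0 tags.

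Apoa5 was the only gene of the 8 with named minor sites, those with at least 1% of a gene's tags and at least 20 tags in a library. A site 523 nt upstream of its main end, at 46078968, held 18.9% of Apoa5 tags in wild-type liver (exact 95% interval 18.1% to 19.8%) and 12.02% in knockout liver (11.3% to 12.7%), from 1731 and 1070 tags. The main site held 79.1% and 86.6%. In kidney the upstream site held 14% (5.82% to 26.7%) and 11.7% (4.82% to 22.6%), each from 7 tags, and the kidney intervals overlap those of both liver libraries. Another site 508 nt downstream, at 46079999, held 1.42% and 1.10% in liver. The 2 liver intervals of the upstream site do not overlap, but they hold counting error of 1 library each, so the difference has no replicate check.

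**Figure D5:**
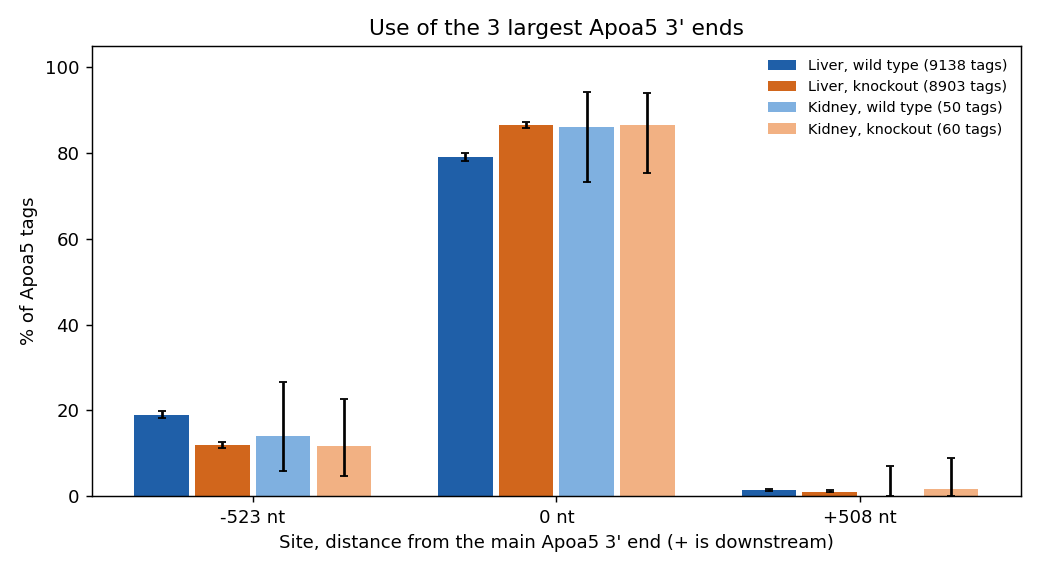
Share of Apoa5 tags at its 3 largest 3′ ends in the liver and kidney libraries, in %, with exact 95% counting intervals. The x axis gives the distance from the main end in nt. The site 523 nt upstream has 18.9% in wild-type and 12.02% in knockout liver.

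The other 7 genes had between 99.3% and 99.98% of their liver tags at the main merged site. The 44 remaining sites of the 8 genes together held 650 tags, or 0.127% of the total, 627 of them in liver, and the largest had 78 tags in 1 library, an Apoc1 site 2441 nt upstream of the main end. Within 10 nt of the peak position lay 99.8% of Apoa2 and 99.1% of Apoe tags in wild-type liver, but 94.98% of Apoc1 and 96.3% of Apoa1 tags. Apoc4, which lies between Apoc2 and Apoc1 and is not among the 8 genes, was also highest in liver. It had 284 and 249 CPM in liver, 1.66 and 2.16 CPM in kidney and 0.627 and 1.65 CPM in adipose tissue. Its main site did not differ between adipose tissue and kidney beyond the spread (edgeR, adjusted p = 0.542).

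On the strand opposite Apoa1, a site at 46037661 had 12 and 9 tags in liver and 8 and 10 in kidney, and 0 or 1 in the other tissue libraries. Liver and kidney did not differ for it beyond the spread (edgeR, adjusted p = 0.726), although Apoa1 itself was 126-fold higher in liver than in kidney by mean CPM. A site at 46039453, between the 2 facing 3′ ends of Apoa1 and Apoc3 and on the strand of Apoc3, had 11 and 8 tags in liver and 0 elsewhere. These sites were put to no gene.

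In mESC the order was different. Apoe had 180 CPM from 573 tags, Apoa2 had 16.3 CPM from 52 tags and Apoc1 6.47 CPM from 20.6 tags, while Apoc2 had 3 tags and Apoa1, Apoc3, Apoa4 and Apoa5 had 0, which allows up to 0.942 CPM each. All 52 Apoa2 tags were at the main site used in liver (exact 95% interval from 93.2%). In 3T3 cells Apoe had 17 tags, or 4.41 CPM, and the other 7 genes had 0, which allows up to 0.779 CPM each. Each culture had 1 library, so no test was made.

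Across the 12 tissue libraries the log2(CPM + 1) levels of the 7 genes other than Apoe followed each other, with Pearson's r between 0.946 and 0.996 over their 21 pairs, whereas Apoe had r between 0.612 and 0.805 with them. The points share libraries and depth, and the liver libraries set much of each value. Among 5714 other sites that reached 50 CPM, the site most like Apoa5 was at chromosome 5, 87554073 to 87554275 (-), with r = 0.999, and that most like Apoa2 at chromosome 3, 82836069 to 82836219 (+), with r = 0.999. For Apoa1 it was at chromosome 3, 82846151 to 82846523 (-), with r = 0.997, and for Apoa4 at chromosome 13, 4456503 to 4456699 (+), with r = 0.997. For Apoc2 it was at chromosome 5, 104392479 to 104392566 (-), with r = 0.998, for Apoc3 at chromosome 10, 77360322 to 77360373 (-), with r = 0.994, and for Apoc1 at chromosome 12, 105583891 to 105583958 (+), with r = 0.992. Apoe had no site with r of 0.99 or more, and its nearest was at chromosome 7, 134947264 to 134947339 (+), with r = 0.971, while Apoc2 had 77 such sites, Apoa5 62 and Apoa4 41. The files name none of these sites.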

How the data were processed

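3P-seq tags were collected from 12 tissue libraries (6 tissues, wild type and miR-22 knockout) and from mESC and 3T3. The submitters' processing notes name CASAVA 1.7, Bowtie and build mm9; the step from reads to sites is not described there. Unscaled expected counts of tags per poly(A) site were deposited by the authors. Sites of all libraries were merged where they overlapped, fractional tags were rounded for the test, and a site was put to a gene by strand and by gene order in the RefSeq table (GRCm38.p6, names and order only). Gene ranges were built around sites of at least 1000 tags, from 4000 nt upstream to 1000 nt downstream.

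Sites were kept by filterByExpr (minimum count 10), scaled by TMM and tested with edgeR 4.0.16 (R 4.3.3), with terms for tissue and genotype and 5 residual degrees of freedom, so that the 2 libraries of a tissue are paired. The spread was moderated across all tested sites, so the tests drew on more than these 5 degrees of freedom. Benjamini-Hochberg adjustment ran over all 23856 tested sites. Each SE of an edgeR difference is approximate, taken as the size of the log2 difference over the square root of the F statistic. Ratios and shares have exact Clopper-Pearson 95% intervals, and shares are given for libraries with at least 50 tags of a gene. The tests were checked on simulated data. There each site had the same mean in all tissues apart from the planted changes, and calls did not use the 4-fold rule. Levels as unequal as those of liver and heart here were thus not covered. The main site of a gene is the one with most tags in the tissue libraries, and its most alike site has the highest Pearson's r of log2(CPM + 1). The members and lists were chosen with earlier results of these data known. The lists of lipoprotein pathway genes and cell type markers were not used, since no mm9 annotation was given. Alternatives were DESeq2 1.42.0, total-tag scaling, no filter, summed genes, no mitochondrial sites, fewer libraries and other model terms.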

Additional observations from a re-analysis of the deposited data

Results flagged for a closer look

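The genotype ratio of Apoe went in opposite directions between tissues. It was 1.66 in muscle (246 and 408 CPM) and 1.82 in white adipose tissue (5662 and 10294 CPM), against 0.656 in liver (32333 and 21214 CPM), each from 1 library per genotype. The counting intervals of muscle and adipose tissue lay on the opposite side of 1 from that of liver under both TMM and total-tag scaling. The flag was set at 1.5-fold. The Apoe ratio was 0.686 in heart (interval 0.647 to 0.728), 1.27 in kidney (1.18 to 1.38) and 0.926 in lung (0.890 to 0.964). How often other sites have ratios in opposite directions between tissues was not counted. The difference between tissues was not tested, because no tissue has a second library of a genotype.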

How the results depend on the processing

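Sites higher in liver numbered 18, but 35 with no filter, where more sites are tested, and 16 to 20 without 1 library. With the sites of each gene summed, all 8 genes were higher in liver. Sites lower in lung numbered 2, but 1 with no filter or with total-tag scaling, 6 with DESeq2, and 1 to 2 without 1 library. Sites lower in muscle numbered 3, but 7 with DESeq2 and 2 to 3 without 1 library, and those lower in heart numbered 4, and 3 to 4 without 1 library. Sites lower in adipose tissue numbered 0, but 0 to 1 without 1 library, the 1 arising without the knockout adipose library. Without 1 library, sites higher in kidney numbered 5 to 7 and neighbouring pairs that differed 17 to 22. The cause was not tested.

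Uncalled log2 differences changed sign. Between genotypes and without both adipose libraries, Apoa2 was -0.26, Apoc1 -0.082, Apoe -0.039 and Apoc2 0.078. With no tissue term, Apoa2 was -0.53, Apoc1 -0.24, Apoe -0.26, Apoc3 -0.11 and Apoa1 -0.0096. Without both muscle libraries Apoe was -0.0005, and with total-tag scaling Apoc2 was 0.06. Without 1 library, the values ranged from -0.27 to 1.04 for Apoa2, -0.083 to 0.33 for Apoc1, -0.046 to 0.25 for Apoe and -0.66 to 0.38 for Apoc2. Apoc1 in kidney was 0.27 with total-tag scaling and -0.28 to 0.17 without 1 library. The lung log2 ratio of Apoe was 0.015 with total-tag scaling. Calls at single main sites were lost for Apoc2 and Apoa5 in kidney, Apoa4 in heart, muscle and lung, and Apoc1 in lung, under the settings named in the report. The tissue term already pairs the 2 libraries of a tissue. Few tags outside liver limit every gene but Apoe.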
